A study of Homo sapiens with 16 samples.

Results

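The response of NCI-H929 cells to a p300 degrader was read across all expressed nuclear genes in 7 bulk RNA sequencing libraries. NCI-H929 is an established human multiple myeloma line, that is, a line of malignant plasma cells and the labels name no genetic change in either group. The 4 DMSO libraries (replicates 1 to 4) came from cells that received only the solvent, and the 3 degrader libraries (replicates 1, 3 and 4) from cells kept for 6 h with 3 nM of p300 degrader 27. These are 7 of the 16 libraries of the series, chosen by their labels. The other degrader library, replicate 2, was left out because 64.9% of its counts fell on mitochondrial genes, and it enters only as a check. All 16 libraries of the series carry the same batch value, so it tells no batches apart, and no label says if replicates came from separate cultures. Of 57465 nuclear genes in the count tables, 16462 had enough counts to be tested. Values for a gene are given in the order of the replicate numbers, in CPM (counts in 1000000 nuclear counts), scaled between libraries.

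p300 (gene EP300) and its paralog CBP (gene CREBBP) are lysine acetyltransferases that DNA-bound transcription factors recruit to enhancers and promoters, where they acetylate histones and help to start transcription. A degrader is a small molecule that brings its target protein to a ubiquitin ligase, so that the proteasome breaks the protein down while the gene and its mRNA remain. The mRNA level of EP300 is therefore no check of the treatment label. Plasma cells secrete immunoglobulin and are held in their state by transcription factors such as IRF4, PRDM1 and XBP1, and myeloma cells depend on IRF4 and MYC.

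The libraries held 17445219 to 19482164 counts each, and a count of 0 allows up to 3 counts, at most 0.221 CPM in any of them. The share of counts on mitochondrial genes was 19.7%, 13.4%, 23.5% and 15.5% in the DMSO libraries and 5.99%, 6.29% and 6.96% in the degrader libraries. The groups did not overlap (18.0% ± 4.47, SD, n = 4, against 6.41% ± 0.498, SD, n = 3; exact two-sided permutation p = 0.0571, the smallest that 4 against 3 libraries allow). The first principal component of 9350 genes held 74.2% of the variance and set the groups apart. Within the DMSO group it also ordered the libraries by their mitochondrial share, from -7.23 in DMSO 2 with the lowest share to -27.6 in DMSO 3 with the highest. For this reason a second model with the mitochondrial share of each library as a covariate is given beside the results. As the shares of the groups do not overlap, a change that follows the share and one that follows the treatment cannot be told apart beyond what the spread within the groups gives. The 10 plasma cell and NCI-H929 genes examined were all detected, with a summed level of 14060 to 18010 CPM in DMSO and 18920 to 19450 CPM in degrader libraries. Most of this sum was JCHAIN, at 8809 to 12950 CPM in DMSO and 12790 to 13320 CPM in degrader libraries. Of the 10 genes, 4 were called higher and 2 lower. Of the markers of other cells, those of T cells had the highest sum, at 123 to 132 CPM in DMSO and 102 to 113 CPM with the degrader. This sum came mostly from TRBC2, at 76.6, 79.8, 84.5 and 78.4 CPM in DMSO and 80.9, 80.6 and 73.3 CPM with the degrader (not called), and from CD3E, at 45.8, 50.4, 45.5 and 49.7 CPM in DMSO and 29.1, 26.9 and 27.0 CPM with the degrader, which was called lower in both models. The defining T cell gene CD3D was at 0 in all 7 libraries, and CD3G, CD2 and CD8A were under 0.2 CPM in each. The sums for monocyte, erythroid and fibroblast markers stayed under 2 CPM in each library. Sums for earlier B cell markers ran from 14.5 to 18.9 CPM in DMSO and from 12.8 to 17.2 CPM with the degrader, those for NK cell markers from 4.87 to 5.50 and from 3.18 to 3.75 CPM, and those for epithelial markers from 10.1 to 15.7 and from 10.9 to 13.4 CPM. The part of other cells in the results was not tested. In bulk libraries, fewer cells of a kind and less RNA per cell cannot be told apart.

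**Figure D1:**
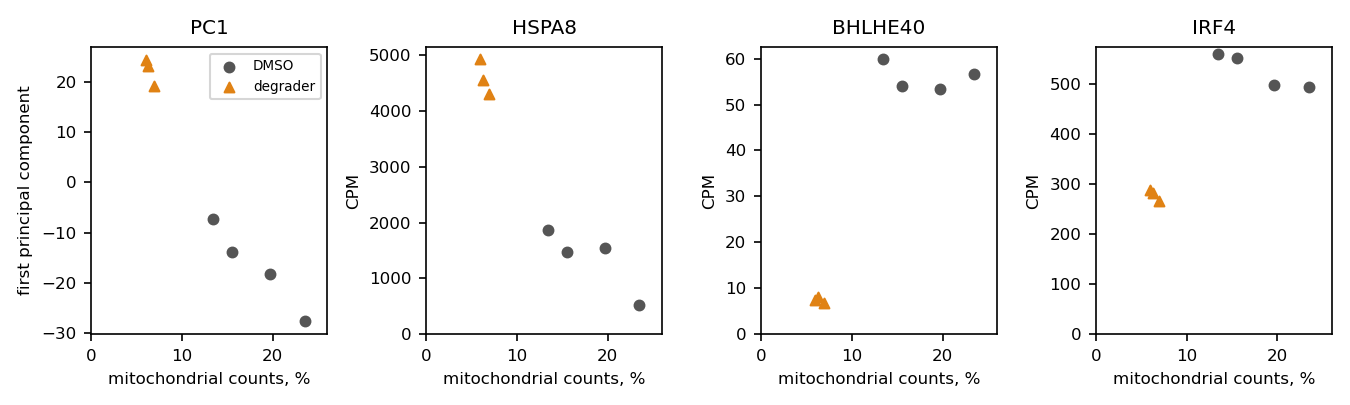
Mitochondrial share of counts (x axes, percent) against the first principal component and the CPM of HSPA8, BHLHE40 and IRF4 (y axes); each point is 1 of the 7 libraries. The degrader libraries lie at 5.99% to 6.96% and the DMSO libraries at 13.4% to 23.5%; HSPA8 varied within DMSO from 523 to 1863 CPM, whereas BHLHE40 stayed between 53.4 and 59.9 CPM.

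The transcriptome shifted broadly and evenly in number, but the strong changes were mostly decreases, many of them in genes of low level or outside protein-coding genes. At an adjusted p under 0.05, 6387 of 16462 genes changed (38.8%), of which 3191 were higher (19.4%) and 3196 lower (19.4%) with the degrader. A change of at least 1 on the log2 scale was reached by 260 higher genes (1.58%) and 1152 lower genes (7.0%). Of these, 224 of the higher and 422 of the lower genes were protein-coding. Most of the imbalance lay at low levels: below 0 log2 CPM 52 genes rose and 333 fell by at least 1. At 0 to 1 log2 CPM 65 rose and 377 fell by this much, and at 4 to 5 log2 CPM 23 and 35. Most changes were small: the median size among called genes was 0.580 on the log2 scale, and 2575 of them (40.3%) changed by less than 0.5. The 260 genes that rose by at least 1 went from a summed level of 3432 to 9400 CPM, and the 1152 that fell by at least 1 went from 15070 to 6000 CPM. In 3741 genes (22.7%) every degrader library was above every DMSO library, and in 3569 (21.7%) every one was below. The even split rested on the scaling: with total nuclear counts 34.7% of called genes were higher and with upper quartile scaling 38.7%, against 3191 of 6387 here. Without degrader 3 the count of called genes was 4132, with 1948 higher, and without degrader 1 the count of higher genes was 1988.

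With the mitochondrial share as a covariate, 862 genes were called, 315 higher and 547 lower. Genes called in both models and in the same direction numbered 639: 163 higher (0.990% of genes tested) and 476 lower (2.89%). Of these, 49 rose and 224 fell by at least 1 on the log2 scale. These 639 genes are named below as called in both models. Because the share differs so much between the groups, the covariate also makes each fold change less precise. A call lost with the covariate is therefore not by itself a change that went away. In some lists below the median held while the calls were lost, and in others it shrank. How much of the drop in calls came from lost precision was not tested.

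**Figure D2:**
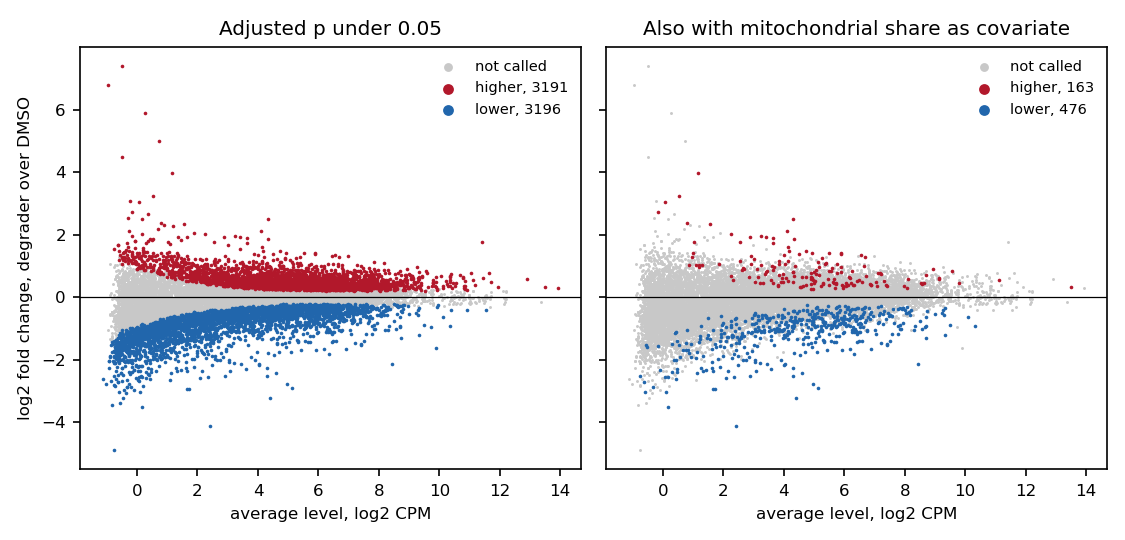
Log2 fold change of each of 16462 genes (y axis, degrader over DMSO) against its average level (x axis, log2 CPM). The left panel colours the 3191 genes called higher and 3196 called lower; the right panel colours the 163 and 476 that were called in both models, most of them below 0.

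The direction of change followed the level and the type of gene. Called higher genes had a median level of 5.08 log2 CPM, called lower genes 2.89, genes that fell by at least 1 only 0.569, and all genes 3.67. Among 12610 protein-coding genes, 3072 were higher (24.4%) and 2003 lower (15.9%); this lean flipped with total nuclear counts (2088 higher, 2710 lower) and with upper quartile scaling (2319 and 2501). Noncoding classes leaned lower under each scaling. Of 1124 antisense RNAs, 20 were higher and 364 lower, and their median log2 fold change was -0.53, against -0.02 for all genes. Of 755 long intergenic RNAs, 33 were higher and 196 lower, and of 446 other long noncoding RNAs 9 were higher and 158 lower. Of 1053 pseudogenes, 44 were higher and 295 lower. Of 56 small nucleolar and Cajal body RNAs, 18 were lower and 0 higher in the edgeR test; 1 was higher at an unadjusted p under 0.05, and DESeq2 and limma-voom also called 0 higher. Noncoding genes and pseudogenes together took 3.43%, 2.79%, 3.63% and 3.13% of nuclear counts in DMSO and 2.26%, 2.33% and 2.53% with the degrader. Within DMSO this share rose and fell with the mitochondrial share, lowest in DMSO 2 and highest in DMSO 3 for both. In both models, 20 antisense RNAs, 25 long intergenic RNAs and 18 pseudogenes were lower, and 2, 2 and 3 were higher. With the covariate the median of antisense RNAs was -0.22. That of small nucleolar and Cajal body RNAs was -0.57, against -0.50 in the first model. In edgeR with the covariate 0 of these 56 were called lower, and 7 were lower at an unadjusted p under 0.05.

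**Figure D3:**
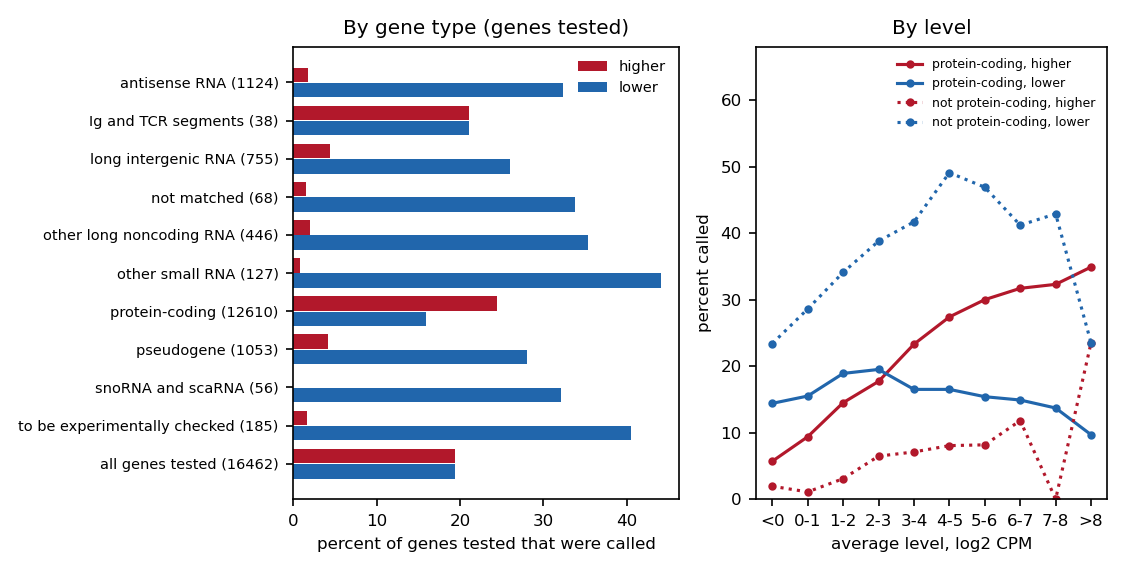
Left, percent of tested genes of each type that were called higher (red) or lower (blue); right, the same percentages by average level (x axis, log2 CPM), for protein-coding genes (solid) and all other genes (dotted). Protein-coding genes were called higher in 24.4% and lower in 15.9%, whereas antisense RNAs were called lower in 32.4% and higher in 1.78%.

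At matched levels the types still differed. At 4 to 5 log2 CPM, 27.4% of protein-coding genes were higher and 16.5% lower, while of the 112 other genes in that range 8.04% were higher and 49.1% lower. Protein-coding genes above 8 log2 CPM were higher in 34.9% and lower in 9.68%. Length went with direction as well. In the fifth of protein-coding genes with the shortest exonic length, 34.2% were higher and 11.5% lower, and in the fifth with the longest 13.8% were higher and 24.6% lower. In the covariate model the medians of these groups were 0.06 and 0.01, against 0.16 and -0.07. By GC content of the exons the share of lower genes went from 12.8% in the fifth with the lowest to 20.9% in the fifth with the highest, and in both models 25 and 128 genes were lower. Across chromosomes the share of higher genes ran from 14% (chromosome 5) to 23.1% (chromosome 11) and that of lower genes from 13.0% (X) to 26.8% (chromosome 16).

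The genes of the targeted proteins and of the myeloma dependency factors were read first. EP300 (chr22:41091786-41180079) measured 46.1, 58.3, 56.5 and 53.3 CPM in the DMSO libraries and 64.5, 62.2 and 64.4 CPM in the degrader libraries, and the log2 fold change was 0.25 ± 0.09 (SE; adjusted p = 0.0421). All degrader values lay above the DMSO values, but the call held in only 2 of 7 fits that each left out 1 library, and with the covariate the value was 0.16 (adjusted p = 0.657). CREBBP, the paralog, rose from 34.1 ± 3.27 CPM (SD, n = 4) to 46.6 ± 0.803 CPM (SD, n = 3), a log2 fold change of 0.45 ± 0.09 (SE; adjusted p = 0.00163). It was called in both models. IRF4, the transcription factor that myeloma cells rely on, measured 497, 558, 494 and 550.5 CPM in the DMSO libraries and 288, 281 and 266 CPM in the degrader libraries. It fell by 0.92 on the log2 scale in the first model and by 1.15 in the second (adjusted p = 2.48e-06 and 8.21e-06). MYC, the growth-promoting factor, varied within DMSO, with 60.7, 81.7, 42.2 and 65.4 CPM, and lay at 39.5, 40.3 and 31.4 CPM with the degrader. Its groups did not overlap, by a narrow margin between DMSO 3 and degrader 3. The log2 fold change was -0.76 ± 0.17 (SE; adjusted p = 0.00265), and -1.73 (adjusted p = 1.79e-06) with the covariate.

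Among protein-coding genes of at least 3 log2 CPM, the largest rise was that of EGR1, a zinc finger transcription factor that growth signals induce within minutes through serum response factor. EGR1 (chr5:138465490-138469315, plus strand) measured 5.42, 8.47, 5.36 and 6.92 CPM in the DMSO libraries and 37.7, 38.2 and 35.8 CPM in the degrader libraries. Every degrader library was far above every DMSO library, and the log2 fold change was 2.5 ± 0.13 (SE; adjusted p = 1.53e-08). The promoter of EGR1 is shown because it holds the binding motif of serum response factor, the CArG box, in the 250 bases before its start (RefSeq, GRCh38.p14, chr5:138465229-138465478, plus strand), with the 2 matches in capitals.
EGR1: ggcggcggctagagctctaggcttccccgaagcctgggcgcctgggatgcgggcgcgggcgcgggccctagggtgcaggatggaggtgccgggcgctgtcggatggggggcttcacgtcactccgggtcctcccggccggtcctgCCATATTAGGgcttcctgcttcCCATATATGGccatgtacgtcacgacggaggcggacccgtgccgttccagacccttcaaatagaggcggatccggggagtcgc
A CArG box, searched on both strands, was found in 109 of 10215 promoters of tested protein-coding genes (1.07%) and in 3 of 179 (1.68%) of those whose genes rose by at least 1. The share was the same among genes that fell by at least 1 (5 of 297, 1.68%), and among genes higher in both models it was 1 of 126 (0.794%). A match is a run of letters, not evidence of binding.

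The other genes at the top of the rise were mostly low in DMSO cells and belonged to unlike families. FAM3B, a secreted cytokine-like protein, rose from 6.99 ± 1.38 CPM (SD, n = 4) to 30.1 ± 1.79 CPM (SD, n = 3). DHRS2, a short-chain dehydrogenase, rose from 4.13 to 16.2 CPM, LEFTY2, a secreted inhibitor of Nodal signals, from 4.73 to 18.1 CPM, and RAB34, a small GTPase, from 5.63 to 21.2 CPM. ANXA6, a calcium-dependent membrane-binding annexin, rose from 9.29 to 33.7 CPM, TAS1R3, a taste receptor subunit, from 6.12 to 20.2 CPM, and CTAG2, a cancer-testis antigen, from 9.24 to 28.1 CPM. All of these were called in both models. RNF19B, a ubiquitin ligase, rose from 5.71 to 16.7 CPM, but its log2 fold change of 1.53 was 0.29 (adjusted p = 0.62) with the covariate.

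HSPA8, the constitutive cytosolic heat shock cognate chaperone, was the one abundant gene in this group. It measured 1544, 1863, 523 and 1480 CPM in the DMSO libraries and 4932, 4553 and 4300 CPM in the degrader libraries. DMSO 3, the library with the highest mitochondrial share, lay far below the other DMSO libraries. The log2 fold change of 1.76 ± 0.27 (SE; adjusted p = 0.000186) was 0.09 (adjusted p = 0.912) with the covariate.

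**Figure D4:**
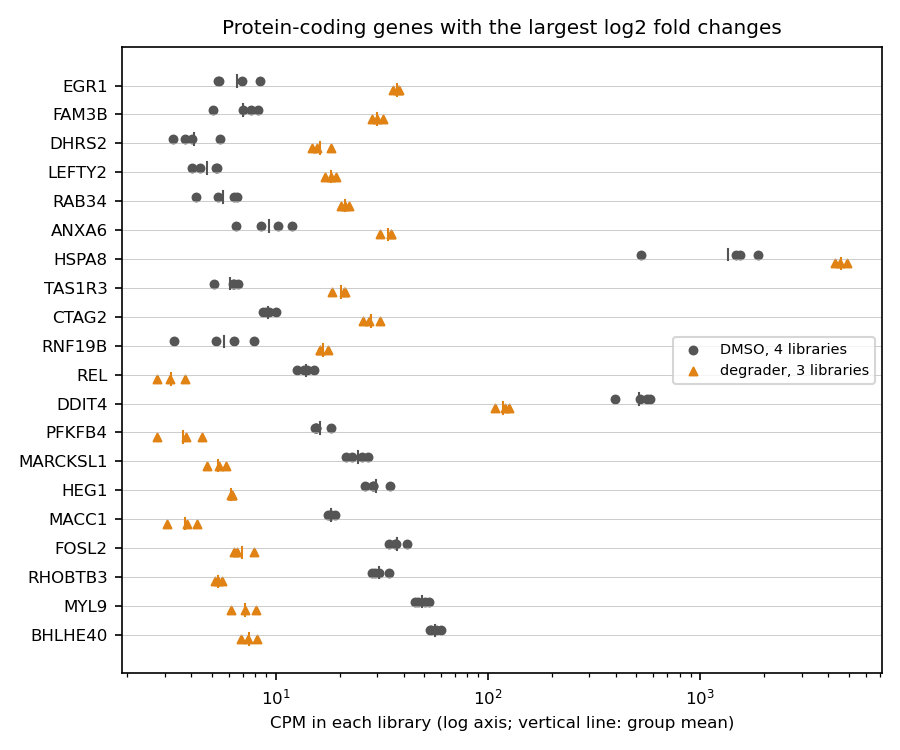
CPM in each library (x axis, log scale) for the 10 protein-coding genes that rose most and the 10 that fell most among those of at least 3 log2 CPM whose groups do not overlap; circles are DMSO, triangles degrader, and vertical lines the group means. The absence of overlap was a condition for choosing these 20 genes; HSPA8 and DDIT4 stand out by their level.

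The largest fall was that of BHLHE40, a basic helix-loop-helix repressor that responds to hypoxia and takes part in the circadian clock. BHLHE40 (chr3:4979116-4985323, plus strand) measured 53.4, 59.9, 56.8 and 54.0 CPM in the DMSO libraries and 7.39, 8.16 and 6.88 CPM in the degrader libraries. The DMSO libraries were close to each other, and the log2 fold change was -2.90 ± 0.11 (SE; adjusted p = 3.11e-10), nearly the same with the covariate (-2.97). MYL9, a regulatory light chain of myosin, measured 46.9, 50.5, 52.7 and 45.4 CPM in the DMSO libraries and 8.08, 6.13 and 7.19 CPM in the degrader libraries, a log2 fold change of -2.78 ± 0.12 (SE; adjusted p = 1.33e-09). RHOBTB3 fell from 30.7 ± 2.44 CPM (SD, n = 4) to 5.35 ± 0.210 CPM (SD, n = 3). FOSL2, a Fos family subunit of the factor AP-1, fell from 37.3 ± 3.02 CPM (SD, n = 4) to 6.94 ± 0.830 CPM (SD, n = 3). MACC1 fell from 18.2 to 3.72 CPM, HEG1, a membrane protein, from 29.6 to 6.18 CPM, and MARCKSL1, an actin-binding protein, from 24.3 to 5.34 CPM.

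DDIT4, a stress-induced inhibitor of the growth kinase complex mTORC1, was the most abundant of the strongly lowered genes. It measured 562, 581, 397 and 521 CPM in the DMSO libraries and 126, 120.2 and 108 CPM in the degrader libraries, and the log2 fold change was -2.13 ± 0.12 (SE; adjusted p = 3.25e-08). PFKFB4, an enzyme that sets the level of an activator of glycolysis, measured 18.3, 15.5, 15.3 and 15.5 CPM in the DMSO libraries and 2.76, 3.76 and 4.48 CPM in the degrader libraries, with DMSO 1 above the other DMSO libraries. REL, a subunit of NF-kB, fell from 13.8 ± 1.06 CPM (SD, n = 4) to 3.23 ± 0.497 CPM (SD, n = 3). All 10 of these genes were called in both models and in each fit without 1 library, with covariate log2 fold changes from -1.86 (HEG1) to -2.97 (BHLHE40).

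By absolute amount, the 6 largest rises were those of EEF1A1, HSPA8, RPL13A, JCHAIN, RPS27 and ENO1, and the largest fall was that of the pseudogene MTATP6P1. EEF1A1, the elongation factor that brings tRNA to the ribosome, measured 13740, 16040, 12040 and 15390 CPM in the DMSO libraries and 18140, 17920 and 16810 CPM in the degrader libraries. Its call (0.30 ± 0.10 (SE; adjusted p = 0.0251)) held in 3 of 7 fits without 1 library. The ribosomal protein genes RPL13A and RPS27 rose by 0.59 and 0.78 on the log2 scale, and ENO1, a glycolytic enzyme, by 0.63. In RPL13A, DMSO 3 stood at 4352 CPM, below 6822, 7060 and 6678 CPM in the other DMSO libraries. With the covariate these 4 genes gave -0.18, -0.09, 0.25 and -0.14, none called. JCHAIN, the chain that joins secreted immunoglobulin, was called higher at 0.31 and, with the covariate, at 0.65 (adjusted p = 0.028). In the first model only 1 of 7 fits without 1 library kept the call, and DMSO 3 (12950 CPM) reached the degrader range of 12790 to 13320 CPM.

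Among the abundant genes that fell, TMSB4X, a small protein that binds actin monomers, was the most even. It measured 1624, 1596, 1674 and 1598 CPM in the DMSO libraries and 848, 888 and 851 CPM in the degrader libraries, a log2 fold change of -0.91 ± 0.08 (SE; adjusted p = 1.05e-06), and was called in both models (-0.83 with the covariate). ACTB, cytoplasmic actin, fell from 3355 to 2535 CPM, and IL32, a cytokine, from 1073 to 557 CPM; with the covariate they gave -0.19 (adjusted p = 0.525) and -0.46 (adjusted p = 0.0509). RPL27A fell by 0.41 on the log2 scale, but the covariate value was 0.01 (adjusted p = 0.979). MTATP6P1, a nuclear pseudogene nearly identical to part of the mitochondrial genome, measured 1741, 811, 1788 and 959 CPM in the DMSO libraries and 341, 523 and 438 CPM in the degrader libraries, so its levels followed the mitochondrial share within DMSO. Its log2 fold change of -1.61 became -0.07 (adjusted p = 0.906) with the covariate.

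The smallest p-values of rising genes, after EGR1, fell on genes that were tight in both groups. FGFR3, the fibroblast growth factor receptor whose locus is rearranged in this line, measured 65.1, 62.9, 60.8 and 62.5 CPM in the DMSO libraries and 158, 149.8 and 153 CPM in the degrader libraries. Its log2 fold change was 1.29 ± 0.08 (SE; adjusted p = 3.57e-08), and 1.26 with the covariate. FURIN, a protease that activates secreted precursors, measured 37.9, 35.5, 34.3 and 33.7 CPM in the DMSO libraries and 94.4, 94.4 and 85.8 CPM in the degrader libraries, and IL16, a cytokine, rose from 14.8 ± 0.689 CPM (SD, n = 4) to 41.1 ± 1.77 CPM (SD, n = 3). Both were called in both models.

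The fixed gene lists grouped these changes by function. Each list is given as the members that passed the test, beside the shares for all genes of 19.4% in each direction and a median log2 fold change of -0.02. Protein-coding genes of higher level had other shares. At 4 to 5 log2 CPM 27.4% of them were higher and 16.5% lower, and at 7 to 8 log2 CPM 32.3% and 13.7%. A list or family of such genes with a share near these does not stand out in that direction. The lists were drawn up with earlier results of these data known, so their counts describe these libraries and carry no test of their own.

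**Figure D5:**
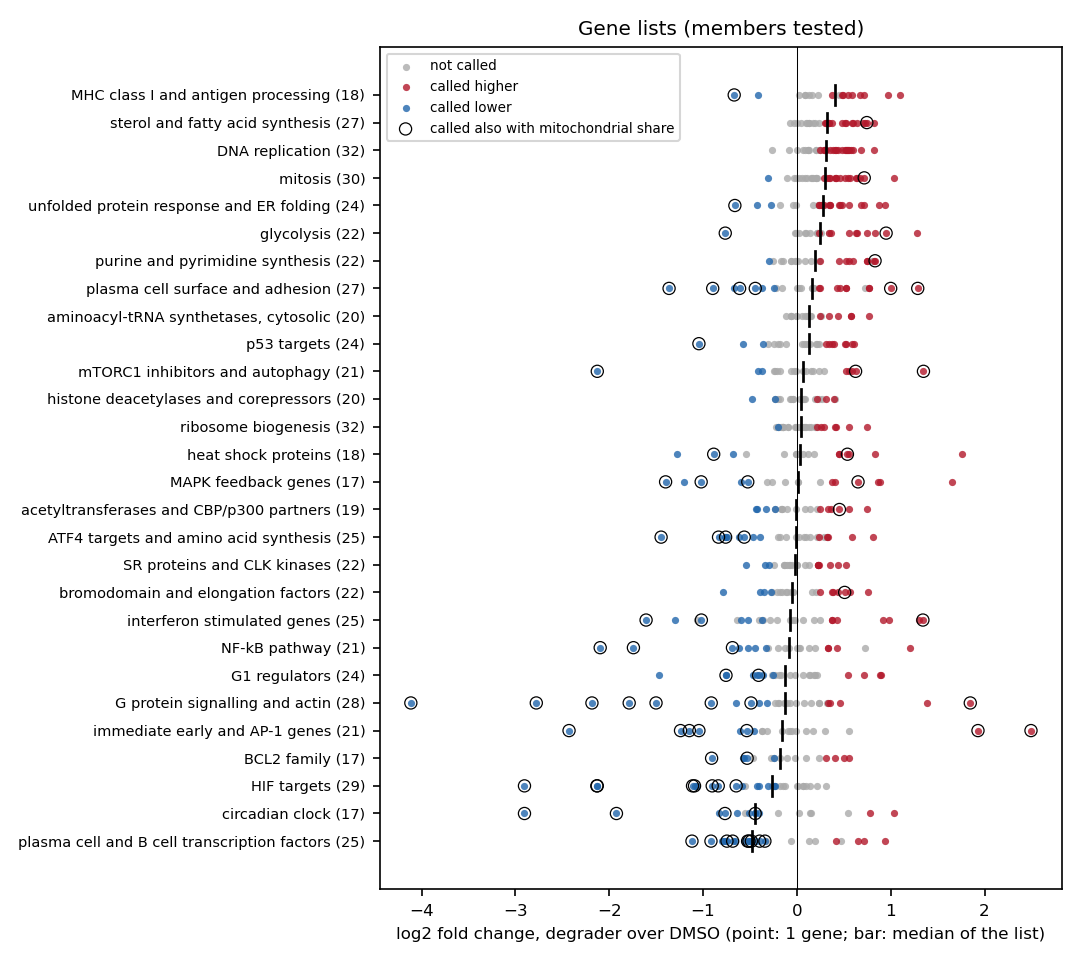
Log2 fold change (x axis, degrader over DMSO) of every tested member of 28 gene lists, ordered by median (black bar); red and blue points were called higher and lower, grey points were not called, and rings mark members called in both models. Plasma cell and B cell transcription factors, clock genes and HIF targets lie lowest, with medians of -0.48, -0.44 and -0.27, and MHC class I genes highest, at 0.41.

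Transcription factors of the plasma cell and B cell lineage mostly fell: 16 of 25 were lower and 4 higher, with a median of -0.48. Besides IRF4, IKZF3, the Ikaros family factor that immunomodulatory drugs deplete in myeloma, measured 109, 113, 143 and 108 CPM in the DMSO libraries and 52.8, 54.2 and 56.3 CPM in the degrader libraries, a log2 fold change of -1.12 ± 0.11 (SE; adjusted p = 2.75e-06). MAF, a factor active in a subset of myelomas, fell from 85.8 ± 5.86 CPM (SD, n = 4) to 51.2 ± 3.28 CPM (SD, n = 3). Both were called in both models, as were 9 of the 16 in all. PRDM1, the factor that drives plasma cell differentiation, fell from 169.6 to 108 CPM, but with the covariate the value was -0.43 (adjusted p = 0.0851). The 4 members that rose included XBP1, the factor that expands the secretory apparatus, from 1308 to 2143 CPM, and KLF2, from 17.9 to 24.0 CPM, neither called with the covariate. SPIB also rose, by 0.66 on the log2 scale, but lost its call with total nuclear counts. With the covariate 0 of the 25 members were called higher by edgeR (1 at an unadjusted p under 0.05). Surface and adhesion genes of plasma cells split, with 10 of 27 higher and 7 lower. FCRL5, an Fc receptor-like surface protein, rose from 14.2 to 28.5 CPM, and ITGAL, an integrin chain of leukocytes, fell from 892 ± 65.8 CPM (SD, n = 4) to 479 ± 11.7 CPM (SD, n = 3); both were called in both models. CCR1, a chemokine receptor, fell from 226 to 148 CPM, and SDC1, the plasma cell surface proteoglycan, rose from 303 to 518 CPM, with -0.01 (adjusted p = 0.981) under the covariate.

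In the list of HIF targets part of the genes fell and none was called higher. This holds for the list only: glycolytic genes, some of them also HIF targets, form a list of their own below, where 10 of 22 were higher. Of 29 tested targets of hypoxia-inducible factor (HIF), 15 were lower and 0 higher in the edgeR test, with a median of -0.27, and 8 were lower in both models. At an unadjusted p under 0.05, and with DESeq2 or limma-voom, 0 were higher as well. HIF is a transcription factor that recruits p300 and CBP through its activation domain and binds the sequence ACGTG. BHLHE40, DDIT4 and STC2 had the smallest p. STC2, a secreted glycoprotein, measured 100.5, 103, 98.1 and 98.8 CPM in the DMSO libraries and 47.6, 45.1 and 46.3 CPM in the degrader libraries, a log2 fold change of -1.11 ± 0.08 (SE; adjusted p = 1.85e-07). Other members that fell were PFKFB4, KDM3A, a histone demethylase, from 40.1 to 21.5 CPM, and VEGFA, the angiogenic growth factor, from 59.4 to 38 CPM. KDM3A and VEGFA were chosen after their values were seen. MIR210HG, a long noncoding RNA that carries the hypoxia-induced microRNA miR-210 and is not a list member, fell from 24.5 ± 3.79 CPM (SD, n = 4) to 5.61 ± 0.353 CPM (SD, n = 3), a log2 fold change of -2.12 ± 0.14 (SE; adjusted p = 8.84e-08).

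The 250 bases before the RefSeq start are shown for 3 of these genes because they hold the HIF core motif ACGTG, with each match on either strand in capitals (RefSeq, GRCh38.p14: BHLHE40 at chr3:4979187-4979436, plus strand; DDIT4 at chr10:72273674-72273923, plus strand; MIR210HG at chr11:568458-568707, minus strand). RefSeq places the start of BHLHE40 further along than the gene span given above, so its printed window lies inside that span. The 2 leftmost matches in BHLHE40 overlap as the palindrome CACGTG. The same window of PFKFB4, a HIF target that fell as well, held 0 matches.
BHLHE40: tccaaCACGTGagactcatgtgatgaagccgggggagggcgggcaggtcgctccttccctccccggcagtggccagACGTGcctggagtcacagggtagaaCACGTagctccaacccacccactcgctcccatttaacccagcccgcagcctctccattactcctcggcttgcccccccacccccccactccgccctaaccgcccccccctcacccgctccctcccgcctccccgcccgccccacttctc
DDIT4: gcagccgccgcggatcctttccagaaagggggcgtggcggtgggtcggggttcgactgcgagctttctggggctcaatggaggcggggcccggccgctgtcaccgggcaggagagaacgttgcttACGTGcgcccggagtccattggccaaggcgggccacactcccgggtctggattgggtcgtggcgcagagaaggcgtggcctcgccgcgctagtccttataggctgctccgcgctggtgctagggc
MIR210HG: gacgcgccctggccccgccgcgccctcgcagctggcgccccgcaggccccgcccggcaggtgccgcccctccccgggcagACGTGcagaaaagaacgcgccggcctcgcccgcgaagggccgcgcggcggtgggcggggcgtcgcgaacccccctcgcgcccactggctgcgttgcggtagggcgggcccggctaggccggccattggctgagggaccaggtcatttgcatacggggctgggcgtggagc
ACGTG stood in 7 of 12 promoters of HIF targets called lower (58.3%) and in 2705 of all 10215 promoters (26.5%). Among genes that fell by at least 1 it stood in 63 of 297 (21.2%). The motif CACGTG, known as the E-box, was searched as a motif of its own and stood in 5 of the 12 and in 10.2% of all. It contains ACGTG, so its matches are among those counted above. No share was taken for HIF targets that were not called, so a link of the motif to the fall was not tested. Promoters of genes that fell by at least 1 held a median of 17.0 CG dinucleotides in 300 bases, against 26 in all, whereas those of genes lower in both models held 27.0.

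Glycolytic genes, some of which are also HIF targets, were more often called higher than lower. Of 22, 10 were higher and 1 lower, with a median of 0.25, which was -0.14 with the covariate. SLC16A3, a lactate exporter, rose from 41.8 ± 3.43 CPM (SD, n = 4) to 80.9 ± 2.27 CPM (SD, n = 3), and HK2, the inducible hexokinase, fell from 101 ± 6.33 CPM (SD, n = 4) to 59.5 ± 2.97 CPM (SD, n = 3); these were the members called in both models. ALDOC and TPI1, an aldolase and an isomerase, rose from 25.6 to 62.6 CPM and from 314 to 558 CPM, and with the covariate gave 0.54 and -0.07, neither called. Clock genes fell in 9 of 17, with 2 higher. PER1, a clock repressor, fell from 37.4 to 22 CPM, and CIART, another clock repressor, from 2.01 to 0.528 CPM; both were called in both models. The 2 higher were CRY1, from 7.76 to 15.9 CPM, and BMAL1, from 4.64 to 8.0 CPM, and neither was called with the covariate.

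The immediate early and AP-1 genes moved in opposite directions. These are transcription factor genes that signals switch on without new protein synthesis, and several of their products pair as the factor AP-1. Of 21, 2 were higher and 7 lower. FOS, an AP-1 subunit, rose beside EGR1 and measured 3.48, 3.35, 2.68 and 3.46 CPM in the DMSO libraries and 12.7, 14.6 and 9.95 CPM in the degrader libraries. JUN, its partner, measured 50.3, 45.8, 51.8 and 43.4 CPM in the DMSO libraries and 19.6, 20.8 and 20.3 CPM in the degrader libraries, a log2 fold change of -1.24 ± 0.10 (SE; adjusted p = 3.34e-07). BTG2, an antiproliferative gene, fell from 168 ± 14.3 CPM (SD, n = 4) to 81.3 ± 10.9 CPM (SD, n = 3), and FOSL2 fell as well. Among them, EGR1, FOS, FOSL2, JUN and BTG2 were called in both models. Genes that feed back on MAP kinase signalling were also split, with 6 of 17 higher and 5 lower (6 and 7 with total nuclear counts). DUSP5, a nuclear phosphatase of ERK, measured 479.5, 519.6, 466 and 484 CPM in the DMSO libraries and 252, 237 and 232 CPM in the degrader libraries, a log2 fold change of -1.02 ± 0.08 (SE; adjusted p = 5.57e-07). DUSP10 fell from 5.66 to 2.15 CPM, and both phosphatases were called in both models. DUSP1, another phosphatase of MAP kinases, rose from 4.01 to 12.7 CPM, but with the covariate gave 0.67 (adjusted p = 0.302).

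Among NF-kB genes, 7 of 21 were lower and 4 higher. BCL3, a nuclear regulator of NF-kB, measured 38.4, 38.1, 33.9 and 38 CPM in the DMSO libraries and 13.1, 11.5 and 8.66 CPM in the degrader libraries, a log2 fold change of -1.74 ± 0.13 (SE; adjusted p = 1.81e-07). CCL3, a chemokine, fell from 103 ± 4.42 CPM (SD, n = 4) to 64.1 ± 3.34 CPM (SD, n = 3). Together with REL, these were the 3 members called lower in both models. Of 25 interferon stimulated genes, 7 were higher and 6 lower. OAS1, an antiviral sensor, rose from 9.47 to 24.1 CPM, while IRF7, a factor that amplifies the interferon response, measured 109, 99.4, 107 and 102 CPM in the DMSO libraries and 52.3, 49.1 and 53 CPM in the degrader libraries. IFIT3, another antiviral gene, fell from 4.56 to 1.5 CPM. OAS1, IRF7 and IFIT3 were the members called in both models. Genes of MHC class I presentation were higher in 9 of 18 and lower in 2, with a median of 0.41. HLA-B rose from 194 ± 41.6 CPM (SD, n = 4) to 415 ± 20.2 CPM (SD, n = 3), lowest in DMSO 3 at 135 CPM, and HLA-F from 14.8 to 28.9 CPM. No member was called higher with the covariate, where HLA-B gave 0.30 (adjusted p = 0.314), and the median was 0.07. NLRC5, an activator of MHC class I genes, fell from 37.6 to 23.6 CPM and was called in both models.

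Genes of G protein signalling and actin were lower in 10 of 28 and higher in 5, and 7 were lower in both models. RGS3, a regulator that shortens G protein signals, measured 29.7, 31.6, 24.8 and 30.7 CPM in the DMSO libraries and 8.71, 8.39 and 8.29 CPM in the degrader libraries, a log2 fold change of -1.79 ± 0.11 (SE; adjusted p = 6.91e-08). RGS1, of the same family, measured 8.13, 6.82, 12.1 and 8.56 CPM in the DMSO libraries and 0.564, 0.289 and 0.676 CPM in the degrader libraries, and its log2 fold change was -4.11 ± 0.29 (SE; adjusted p = 1.68e-07). RGS1 was chosen after its values were seen. CTTN, an actin-branching protein, rose from 8.40 to 22.2 CPM, with 0.64 (adjusted p = 0.2) under the covariate. Genes that restrain mTORC1 or serve autophagy were higher in 5 of 21 and lower in 3 (4 and 5 with total nuclear counts). TXNIP, an inhibitor of glucose uptake and thioredoxin, measured 61.7, 55.2, 48.2 and 62.2 CPM in the DMSO libraries and 144, 147 and 144 CPM in the degrader libraries, a log2 fold change of 1.35 ± 0.09 (SE; adjusted p = 1.45e-07), in the opposite direction to DDIT4. DEPTOR, a subunit that inhibits mTOR and is abundant in many myelomas, rose from 59.0 ± 7.29 CPM (SD, n = 4) to 91.0 ± 1.98 CPM (SD, n = 3). Both were called in both models.

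Targets of ATF4 and genes of amino acid synthesis were lower in 9 of 25 and higher in 5. SLC7A5, an importer of large amino acids, measured 413, 468, 454 and 409.7 CPM in the DMSO libraries and 262, 262 and 248 CPM in the degrader libraries, a log2 fold change of -0.76 ± 0.08 (SE; adjusted p = 1.33e-05). CEBPB, a transcription factor, fell from 172 ± 18.4 CPM (SD, n = 4) to 96.5 ± 2.13 CPM (SD, n = 3), and ATF5, another factor, from 729 to 494 CPM; all 3 were called in both models. PSPH, an enzyme of serine synthesis, rose from 20.4 to 35.9 CPM. Of 20 cytosolic aminoacyl-tRNA synthetases, 6 were higher and 0 lower (edgeR; 0 lower also at an unadjusted p under 0.05, with DESeq2 and with limma-voom), and none of the 6 was called with the covariate.

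The lists of protein folding and lipid synthesis leaned higher by small steps under each scaling, and 1 of their 32 higher calls was also made with the covariate. Genes of the unfolded protein response and endoplasmic reticulum folding were higher in 16 of 24 and lower in 3. PDIA4, a protein disulfide isomerase, rose from 431 ± 36.9 CPM (SD, n = 4) to 690.5 ± 35.7 CPM (SD, n = 3), and none of the 16 was called with the covariate (2 members were higher there at an unadjusted p under 0.05). ERN1, the sensor kinase that splices XBP1, fell from 109.7 ± 10.8 CPM (SD, n = 4) to 69.4 ± 5.85 CPM (SD, n = 3) and was called in both models. Genes of sterol and fatty acid synthesis were higher in 16 of 27 and lower in 0 (edgeR; 0 lower also at an unadjusted p under 0.05, with DESeq2 and with limma-voom). IDI1, an enzyme of the sterol pathway, rose from 21.5 to 37.9 CPM. In nucleotide synthesis, 9 of 22 were higher and 1 lower, and RRM2, the inducible subunit of ribonucleotide reductase, measured 544, 588, 542 and 587 CPM in the DMSO libraries and 1008, 1042 and 971 CPM in the degrader libraries and was called in both models.

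Among cell cycle genes, those of DNA replication and mitosis leaned higher under each scaling, whereas regulators of G1 leaned lower. DNA replication genes were higher in 20 of 32 and lower in 0 in the edgeR test (1 lower at an unadjusted p under 0.05, 0 with DESeq2 and with limma-voom), with a median of 0.31. With the covariate the median was 0.13 and none of the 20 was called. CHAF1A, a chaperone that loads histones on new DNA, rose from 179.9 to 272 CPM. Mitosis genes were higher in 16 of 30 and lower in 1. MKI67, the proliferation marker Ki-67, measured 298, 349, 345 and 328 CPM in the DMSO libraries and 534, 549 and 546 CPM in the degrader libraries, a log2 fold change of 0.72 ± 0.08 (SE; adjusted p = 1.71e-05), and was the member called in both models. CCNA2, cyclin A, rose from 81.7 to 127 CPM, with 0.37 (adjusted p = 0.186) under the covariate. Regulators of G1 were lower in 8 of 24 and higher in 4. CCND2, a D-type cyclin, fell from 331 ± 29.2 CPM (SD, n = 4) to 249.8 ± 7.49 CPM (SD, n = 3) and was called in both models, and MNT, a repressor that opposes MYC, fell from 24.2 to 14.3 CPM. CCND3 rose from 44.7 to 73.7 CPM, with 0.09 (adjusted p = 0.833) under the covariate. Ribosome biogenesis genes were higher in 7 of 32 and lower in 1 (4 and 7 with total nuclear counts).

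The BCL2 family, which sets the threshold for apoptosis, was lower in 5 of 17 and higher in 4. MCL1, the survival protein on which plasma cells depend, measured 608, 636, 507 and 626 CPM in the DMSO libraries and 436, 423 and 376 CPM in the degrader libraries, a log2 fold change of -0.53 ± 0.10 (SE; adjusted p = 0.000754). BMF, a proapoptotic member, fell from 46.4 ± 4.40 CPM (SD, n = 4) to 24.7 ± 0.764 CPM (SD, n = 3). These 2 were called in both models. Of 24 targets of p53, 8 were higher and 3 lower (6 and 5 with total nuclear counts), and BTG2 was the member called in both models. Heat shock proteins were higher in 6 of 18 and lower in 3. HSPA1B, an inducible chaperone, fell from 86.5 ± 11.4 CPM (SD, n = 4) to 46.8 ± 0.471 CPM (SD, n = 3), while HSP90AA1 rose from 1882 ± 231 CPM (SD, n = 4) to 2733 ± 144 CPM (SD, n = 3); both were called in both models, unlike HSPA8.

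In the lists of transcription machinery given here, no gene changed in mRNA by 1 or more on the log2 scale. The median size among all called genes was 0.580. Of acetyltransferases and their partners 31.6% were called higher and 21.1% lower, against 19.4% each for all genes. For bromodomain and elongation factors the shares were 31.8% and 18.2%, with log2 fold changes from -0.79 to 0.76. Of 19 acetyltransferases and partners of CBP and p300, 6 were higher and 4 lower (4 and 6 with total nuclear counts), between -0.44 and 0.75 on the log2 scale. ATF1, a factor that recruits CBP, rose from 18.6 to 31.3 CPM, with 0.28 (adjusted p = 0.47) under the covariate, and CREBBP was the member called in both models. Of 22 bromodomain and elongation factors, 7 were higher and 4 lower (5 and 7 with total nuclear counts, 5 and 6 with upper quartile scaling). HEXIM1, an inhibitor of the elongation kinase P-TEFb, rose from 72.8 ± 3.38 CPM (SD, n = 4) to 104 ± 3.21 CPM (SD, n = 3) and was called in both models, and AFF1, a scaffold of the elongation complex, fell from 56.8 to 32.9 CPM. Of 20 deacetylases and corepressors, 3 were higher and 2 lower (1 and 5 with total nuclear counts, 1 and 4 with upper quartile scaling, 1 and 2 with mitochondrial genes kept). RNA polymerase II subunits were higher in 7 of 12 and lower in 0 (edgeR; 0 lower also at an unadjusted p under 0.05, with DESeq2 and with limma-voom). Mediator subunits were higher in 8 of 30 and lower in 2. None of these 7 and 8 higher calls was made with the covariate in edgeR, where 2 Mediator subunits were higher at an unadjusted p under 0.05. The medians of the polymerase and Mediator subunits were 0.29 and 0.16 in the first model, and 0.24 and 0.06 with the covariate. With total nuclear counts, Mediator subunits were higher in 7 and lower in 5.

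Among families taken by their symbols, mitochondrial ribosomal proteins were higher in 38 of 78 and lower in 1, nuclear subunits of the respiratory chain higher in 25 of 78 and lower in 0 (edgeR; 4 lower at an unadjusted p under 0.05, 1 with DESeq2 and 0 with limma-voom), proteasome subunits higher in 17 of 37 and lower in 1, and translation initiation factors higher in 24 of 53 and lower in 1. Of these, 1 respiratory chain subunit and 1 proteasome subunit were called higher in both models. The medians did not all shrink with the calls. Mitochondrial ribosomal proteins had a median of 0.22 in both models, and respiratory chain subunits 0.13 in the first and 0.20 with the covariate. For proteasome subunits the medians were 0.20 and 0.08, and for translation initiation factors 0.17 and 0.00. Cytosolic ribosomal proteins were higher in 19 of 85 and lower in 2, with a median of 0.00. This lean rested on the scaling: total nuclear counts gave 14 higher and 14 lower, and upper quartile scaling 15 and 10. For respiratory chain subunits total nuclear counts gave 16 higher and 5 lower, and upper quartile scaling 16 and 4. ZNF zinc finger genes leaned lower, with 98 of 434 lower and 30 higher, and SLC transporters were nearly even, with 49 of 224 higher and 44 lower (36 and 59 with total nuclear counts, 40 and 54 with upper quartile scaling). SLC17A9, a nucleotide transporter, fell from 408 ± 41.1 CPM (SD, n = 4) to 195 ± 2.02 CPM (SD, n = 3), and SLC12A3, an ion cotransporter, from 5.17 to 0.667 CPM; both were called in both models. Replication-dependent histone genes, whose copies are near-identical and so uncertain in these counts, were lower in 15 of 42 and higher in 7. With the covariate 0 of the 42 were called lower by edgeR (2 at an unadjusted p under 0.05), and 2 were higher in both models. Of 33 kinesins, 6 were higher and 7 lower, and KIF7, a regulator of Hedgehog signals, fell from 64.1 ± 5.53 CPM (SD, n = 4) to 24.1 ± 1.82 CPM (SD, n = 3).

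Several well-expressed noncoding genes changed. NEAT1, the RNA scaffold of paraspeckles, measured 1034, 667, 825 and 902 CPM in the DMSO libraries and 388, 343 and 379 CPM in the degrader libraries, a log2 fold change of -1.21 ± 0.12 (SE; adjusted p = 5.54e-06), and -0.89 (adjusted p = 0.0109) with the covariate. KCNQ1OT1, an imprinted antisense RNA, measured 46.8, 38.4, 66.4 and 43.7 CPM in the DMSO libraries and 12.2, 13.2 and 18.1 CPM in the degrader libraries, highest in DMSO 3. DBH-AS1 fell from 17.6 ± 3.57 CPM (SD, n = 4) to 6.11 ± 0.571 CPM (SD, n = 3). Among those that rose, LINC01234 measured 5.01, 5.12, 5.43 and 4.53 CPM in the DMSO libraries and 11.8, 11.5 and 11.9 CPM in the degrader libraries, a log2 fold change of 1.22 ± 0.13 (SE; adjusted p = 5.84e-06). OTUD6B-AS1 rose from 42.0 ± 2.67 CPM (SD, n = 4) to 62.2 ± 0.294 CPM (SD, n = 3) and TMPO-AS1 from 13.2 ± 1.55 CPM (SD, n = 4) to 18.7 ± 1.56 CPM (SD, n = 3). All 6 were called in both models. RN7SL2 and RN7SL3, copies of the RNA of the signal recognition particle that are nearly identical to others in the genome, fell from 567 to 228 CPM and from 42.4 to 14.1 CPM. Of the 112 genes with values here, 55 overlap a gene on the opposite strand, among them EP300, CREBBP, BHLHE40, MYL9, FOSL2, DDIT4, IL32 and KCNQ1OT1; since the use of strand in counting is not given in the sources used here, reads of such pairs cannot be told apart.

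Adding back degrader 2, with its 64.9% of mitochondrial counts, left 770 of 16159 genes called, 269 higher and 501 lower, and all 770 were called in the same direction without it. Genes called in both models and also with this library numbered 342. BHLHE40, MYL9, FOSL2, DDIT4, EGR1 and IRF4 stayed called, with log2 fold changes of -2.75, -2.73, -2.37, -2.30, 2.46 and -0.88. REL, NEAT1, MYC and HSPA8 did not, with -1.09, -0.63, -0.76 and 1.47.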

How the data were processed

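The deposited values were whole-number read counts, with 57500 genes in every library's table, and they were used as deposited. The submitters' processing notes list the trimmer Trimmomatic 0.36, the aligner STAR 2.5.2b, the counter featureCounts (Subread 1.5.2), the R package DESeq2 1.16.1 and the build GRCh38. How strand and reads mapping to more than 1 place were handled, and which annotation was counted, is not given in the sources used here. Genes were matched to GENCODE 29 by identifier (56898 matched, 96.3% of them with the same start, end and strand), and 40907 had a symbol. 35 mitochondrial genes were left out before scaling.

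The analysis ran in R 4.3.3 with edgeR 4.0.16: filterByExpr at its defaults, TMM scaling of the nuclear counts, a quasi-likelihood test of degrader (3 libraries) against DMSO (4 libraries), and Benjamini-Hochberg adjustment over all 16462 genes tested, called under 0.05. SEs were derived from the size of the log2 fold change over the root of its F statistic. The second model added the mitochondrial share of each library as a covariate. Alternatives were DESeq2 1.42.0, limma-voom of limma 3.58.1, other scalings and filters, a replicate block, a joint fit of 14 libraries (with the NTC and p300 KO groups, without degrader 2 and p300 KO 1, both high in mitochondrial counts), length and GC trends removed, degrader 2 added and each library left out. The fit was tested on simulated counts. The exact permutation test used SciPy 1.17.1. Floors and intervals cover counting error only, and no 2 libraries agreed within sampling noise (chi-square per degree of freedom of 2.80 or more). Since the labels do not say that replicates were separate cultures, p-values cover no more than the spread of these libraries, which could be technical.

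Genes are named by a rule: EP300, CREBBP, MYC and IRF4; the 10 coding genes each way with the largest fold change at 3 log2 CPM or more without overlap of the groups; the 6 each way with the largest CPM difference; the 5 each way with the smallest p; up to 3 long noncoding genes each way; and up to 3 called members each way per list, family or type with the smallest p. PRDM1, SPIB, SDC1, KDM3A, VEGFA and RGS1 are exceptions, picked with their values in view. The comparison, the 28 lists and the 18 families were chosen with earlier results of these data known. Promoters are RefSeq windows of 250 bases before to 50 after a gene's start, found for 10215 of 12610 coding genes (81.0%), and were searched on both strands; only the 250 bases before the start are printed. Some genes that the rule names are not reported here.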

Additional observations from a re-analysis of the deposited data

Results flagged for a closer look

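In the 4 DMSO libraries, single values stood apart by Dixon's test at the 95% level in 2 of the 44 genes examined, where chance gives about 1 in 20. PFKFB4 was highest in DMSO 1, at 18.28 CPM, against 15.3 to 15.5 CPM in the other 3. RPL13A was lowest in DMSO 3, at 4352 CPM, against 6678 to 7060 CPM. The number of genes with a count was lowest in DMSO 1, at 26843, against 27393 to 27501. In the library left out, degrader 2, the mitochondrial share was 64.9%, above the 23.5% of the highest DMSO library.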

How the results depend on the processing

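With degrader 2 added, 770 genes were called (269 higher, 501 lower; 98 and 234 by at least 1 on the log2 scale), and the mitochondrial share with the degrader differed by 2.999 points in place of -11.62 (exact permutation p = 1). With the mitochondrial share as a covariate, 862 were called (315 and 547; 85 and 268). Leaving out each library in turn gave 4132 to 6805 called genes, 1948 to 3385 higher and 2184 to 3489 lower, 219 to 314 and 909 to 1265 by at least 1, and a difference of the share between -13.16 and -9.795 points. The fewest called genes came without degrader 3 (4132), against 4282 without degrader 1 and 5189 without degrader 4. With a DMSO library left out the counts ran from 5280 (DMSO 4) to 6805 (DMSO 2). The other scalings, filters and tools gave 5972 to 6635 called genes, and the joint fit of 14 libraries gave 8099. Of the 112 genes with values in the text, 78 kept direction and call with the covariate, 27 lost the call and 7 turned: EEF1A1 (-0.18), RPL13A (-0.092), ENO1 (-0.14), RPL27A (0.0097), SDC1 (-0.0095), TPI1 (-0.0677) and TRBC2 (0.038), which was not called and ran from -0.0644 to 0.00916 (without degrader 4) with 1 library left out. With degrader 2, 67 kept both, 44 lost the call and MTATP6P1 turned (1.04). EP300 (0.16, adjusted p = 0.186, edgeR), EEF1A1 and JCHAIN lost the call with total nuclear counts, upper quartile scaling or mitochondrial genes kept, and SPIB with the first of these. A replicate block gave 6320 called genes and ended the call of 1 gene in the text, JCHAIN. Same-numbered libraries did not deviate together (correlations of -0.0951, -0.0713 and -0.226). Pairs of unlike number ran from -0.501 to 0.424, so with so few libraries these correlations cannot decide if the numbers pair the samples. Genes under 1 log2 CPM are limited by counting error.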
